A study of Homo sapiens with 6 samples.

Results

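The transcripts of cytoplasmic dynein-1 and dynactin were followed in the AGS line of human gastric adenocarcinoma after siRNA against C1GALT1. The set held 10 of the 22439 genes with a probe on the array, read by 13 of its 58201 probes. These were DYNC1H1, DYNC1I1, DYNC1I2, DYNC1LI1, DYNC1LI2, DYNLL1, DYNLT1, DYNLRB1, DCTN1 and DCTN2, matched through the RefSeq accession printed for each probe, and every one of them had a probe. They were chosen by complex membership with their array signals in si-C1GALT1-3 and si-control cells already known, so the difference between the groups is described for the members and is not used as a test of the set. Expression was measured 48 h after transfection. The control cells received nontargeting siRNA (si-control) and the treated cells si-C1GALT1-3, which is 1 of the siRNAs that the study made against C1GALT1, the enzyme that extends GalNAc-type O-glycans. There were 3 samples in each group, measured on 6 single-colour Agilent arrays. Both groups were AGS cells grown in serum-containing RPMI medium, and the treated group stands for 1 siRNA in 1 cell line. The labels do not say whether the samples were separate cultures, so errors and p-values cover only the spread between these samples, which may be technical.

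Cytoplasmic dynein-1 is the motor that carries vesicles, organelles, mRNA and kinetochore proteins towards the minus ends of microtubules, and it positions the centrosome and the mitotic spindle. A pair of heavy chains holds the motor domains, intermediate chains and light intermediate chains build the tail on which cargo is attached, and light chains bind the intermediate chains. Dynactin is a separate complex, built on a filament of actin-related protein, that binds dynein through the intermediate chain and makes it processive together with LIS1, NudE proteins and cargo adaptors. The DYNC1I2 intermediate chain is known as the broadly expressed form and DYNC1I1 as the form most abundant in neurons.

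Of the intermediate chain paralogs, DYNC1I1 passed the threshold used here and DYNC1I2 did not, and the sequence before the start of each gene is shown for that reason. The windows are the bases directly before the transcription start given by RefSeq on GRCh38.p14, at chr7:95772304-95772553 for DYNC1I1 and chr2:171687219-171687468 for DYNC1I2, both on the plus strand, and capitals mark a GC box (GGGCGG).
DYNC1I1: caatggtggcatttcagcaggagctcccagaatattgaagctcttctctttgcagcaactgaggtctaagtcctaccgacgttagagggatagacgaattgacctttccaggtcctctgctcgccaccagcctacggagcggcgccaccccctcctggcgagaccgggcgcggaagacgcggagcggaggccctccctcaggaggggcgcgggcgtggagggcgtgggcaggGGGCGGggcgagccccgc
DYNC1I2: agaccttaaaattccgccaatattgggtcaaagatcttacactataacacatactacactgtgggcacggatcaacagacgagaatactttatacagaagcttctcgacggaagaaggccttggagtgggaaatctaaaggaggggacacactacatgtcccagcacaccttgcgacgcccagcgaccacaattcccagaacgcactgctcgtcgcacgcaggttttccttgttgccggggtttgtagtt
The DYNC1I1 window had a GC content of 65.6%, 21 CpG dinucleotides and 1 GC box. This DYNC1I2 window had a GC content of 49.2%, 13 CpG and no GC box, and it held the CCAAT box (CCAAT) at 2 places. A further DYNC1I2 start had a window with 52.0% GC and 1 GC box. Among 35116 windows of the same length, read on both strands, 42.6% held a GC box and 32.0% a CCAAT box, and the median GC content was 58.0%. The 10 members had 16 windows in all, of which 12 held a GC box and 3 a CCAAT box. None held the CHR motif of cell cycle promoters (TTTGAA), which was in 13.3% of all windows. These are matches of letters, and binding at these windows was not measured here.

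The array of si-control replicate 2 had a region of low signal in its centre, which covered 15.9% of its gene spots. There the median difference in log2 signal from the mean of si-control replicates 1 and 3, before normalization, was -2.19, against -0.06 outside the region. Spots in the region were set to missing on that array, and this affected DYNLRB1 and the dimmer probe of DYNLL1. The other 11 probes were measured on all 6 arrays, and all 13 were well above background wherever they were measured. C1GALT1, the targeted gene, had a normalized log2 signal of 12.22, 13.03 and 12.62 in si-control replicates 1 to 3 and of 11.76, 11.98 and 11.13 in si-C1GALT1-3 replicates 1 to 3. The groups did not overlap, and the treated one was lower, by a difference of -1.0003 on the log2 scale (standard error 0.31). The adjusted p was 0.265 (limma, adjusted over all probes by Benjamini-Hochberg), and the unadjusted p of 0.019 was short of 0.01. All si-control arrays were in column 1 of their slides and all si-C1GALT1-3 arrays in column 2, so treatment and position on the slide cannot be told apart. The epithelial markers EPCAM, KRT8, KRT18 and KRT19 were well above background on every array. The brightest probes of 5 of the 8 leukocyte, endothelial and fibroblast markers were also above background wherever measured, and none of these 12 marker genes passed the threshold given below by that probe. In RNA from whole cultures, a change in the share of cells of a type cannot be told apart from a change in RNA per cell.

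Within the set, DYNC1I1 rose 4.31-fold in si-C1GALT1-3 cells and was the only member past the threshold, while the DYNC1I2 intermediate chain differed by 1.13-fold. A gene was called past the threshold at an unadjusted p under 0.01 by limma together with a 2-fold or larger difference, as read from its brightest probe. By this rule 1 of the 10 members was called, beside 3.41% of the 22438 genes tested, of which 2.08% were called higher and 1.33% lower. Of the 10 members, 9 had a positive log2 fold change and 1 a negative one, with a median of 0.29, beside 52.4% positive and a median of 0.02 over all genes. Without DYNC1I1 the median of the other 9 members was 0.26. The groups did not overlap for 3 members, DYNC1I1, DYNLRB1 and DCTN1, all higher in si-C1GALT1-3 cells, beside 14.0% of genes higher without overlap. For 7 members the 95% confidence interval lay within 2-fold in both directions, beside 51.8% of all genes. The exceptions were DYNC1I1, DYNC1H1 and DCTN2.

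**Figure D1:**
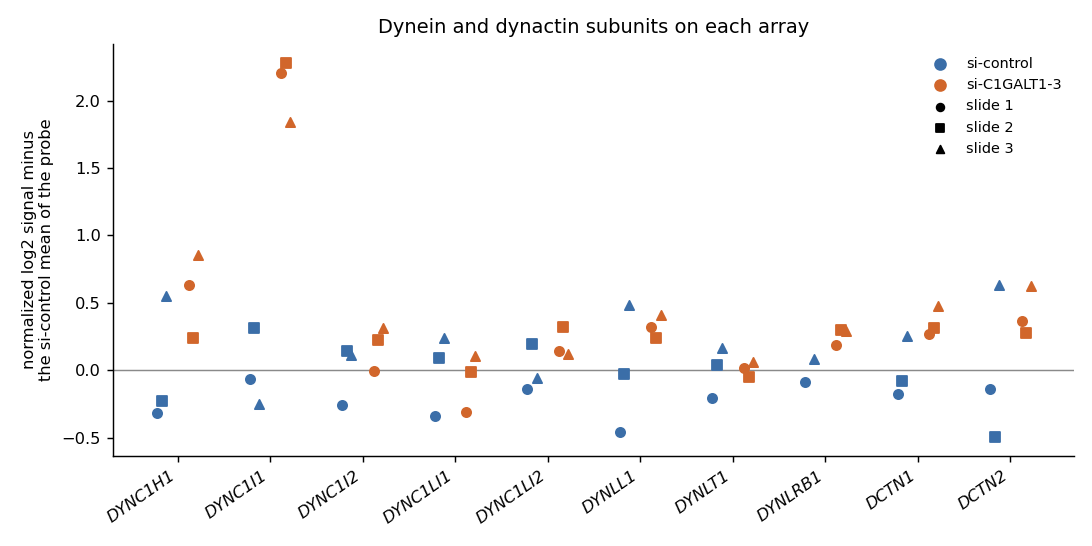
Normalized log2 signal minus the si-control mean of the probe (vertical axis), for the brightest probe of each of the 10 members. Each point is an array, with si-control and si-C1GALT1-3 side by side and marker shapes for the slides. The DYNC1I1 points form separate groups about 2.11 apart, while most other members overlap. The horizontal line is the si-control mean of each probe, so signal levels are not compared between members.

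DYNC1I1 encodes an intermediate chain, the subunit that joins the heavy chain to light chains and to dynactin. Its probe (A_24_P221414) had a normalized log2 signal of 7.38, 7.75 and 7.19 in si-control replicates 1 to 3, and of 9.64, 9.72 and 9.28 in si-C1GALT1-3 replicates 1 to 3. The lowest si-C1GALT1-3 array was thus above the highest si-control array by more than the whole range of either group. The log2 fold change was 2.11 (standard error 0.21, 95% confidence interval 1.58 to 2.63), which is 4.31-fold with an interval of 2.99-fold to 6.21-fold. Within slides 1, 2 and 3, the si-C1GALT1-3 array exceeded the si-control array by 2.27, 1.97 and 2.09 on the log2 scale. Before normalization, the processed intensity of this spot was 218, 215 and 101 in si-control replicates 1 to 3 and 950, 995 and 500.4 in si-C1GALT1-3 replicates 1 to 3. The spot was well above background on all 6 arrays and lay outside the low region. Replicate 3 had the lowest intensity in both groups, and its ratio between the groups was similar to that of the other slides. Among the 466 genes called higher, DYNC1I1 had the 52nd largest fold change. Its adjusted p was 0.067, so no member reached an adjusted p under 0.05 in the reported limma fit. At an unadjusted p under 0.05 there was 1 member in that fit, beside 8028 of 58193 probes. By the methods' t-test there were 2, beside 6464 of 58169 probes. The count was 3 in limma with the replicate as a block, where DYNC1H1 and DCTN1 were added, beside 10064 of 58161 probes. It was 5 in limma without si-control replicate 3, beside 8628 of 58181 probes. The gene has 1 probe on the array, so no second probe can be set beside it.

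DYNC1I2 encodes the other intermediate chain. Its probe (A_23_P154108) had a normalized log2 signal of 11.26, 11.66 and 11.63 in si-control cells and of 11.51, 11.75 and 11.83 in si-C1GALT1-3 cells. The groups overlapped, since si-control replicates 2 and 3 were above si-C1GALT1-3 replicate 1. Its log2 fold change was 0.18 (standard error 0.18, interval -0.26 to 0.61), and its upper end of 1.53-fold lies below the lower end of 2.99-fold for DYNC1I1. Without si-control replicate 1 the DYNC1I2 value was 0.05. The choice of the set rests on this same comparison, so the gap between the paralogs is a description.

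DYNC1H1 encodes the heavy chain, which holds the ATPase ring and the microtubule-binding stalk. Its normalized log2 signal was 13.11, 13.20 and 13.98 in si-control cells and 14.06, 13.67 and 14.28 in si-C1GALT1-3 cells. It had the largest positive value after DYNC1I1, but si-control replicate 3 lay above si-C1GALT1-3 replicate 2. The difference was 0.57 on the log2 scale (standard error 0.30, interval -0.16 to 1.31) and did not pass the threshold. By slide 1, 2 and 3 it was 0.95, 0.47 and 0.31, all positive and unequal in size.

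The light intermediate chains link the motor to cargo adaptors. DYNC1LI1 was the only member with a negative value. Its normalized log2 signal was 10.83, 11.26 and 11.40 in si-control cells and 10.85, 11.15 and 11.27 in si-C1GALT1-3 cells, and the groups overlapped. This gave a log2 fold change of -0.07 (standard error 0.21, interval -0.60 to 0.45). DYNC1LI2 had 12.78, 13.12 and 12.86 in si-control cells and 13.06, 13.24 and 13.04 in si-C1GALT1-3 cells. Here si-control replicate 2 was above si-C1GALT1-3 replicates 1 and 3. The log2 fold change was 0.20 (standard error 0.15), and a second DYNC1LI2 probe gave 0.21 (standard error 0.19).

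**Figure D2:**
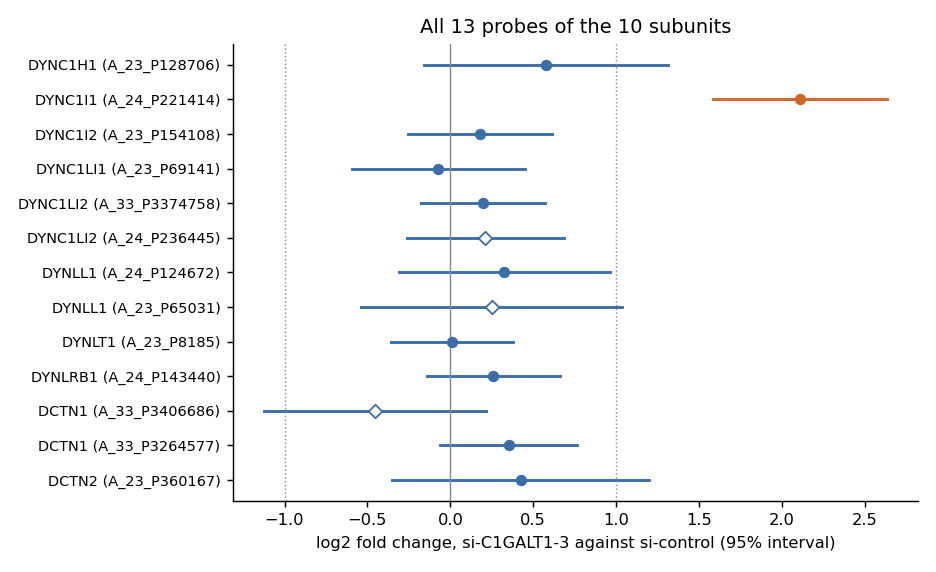
Log2 fold change, si-C1GALT1-3 minus si-control (horizontal axis), for each of the 13 probes of the 10 members, with 95% confidence intervals from limma. The DYNC1I1 interval of 1.58 to 2.63 is the only one that lies wholly on one side of 0, and the dimmer DCTN1 probe is opposite in sign to the brighter one.

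The light chains are small dimeric proteins on the intermediate chains, and DYNLL1 also serves as a hub for many partners outside dynein. The brighter DYNLL1 probe (A_24_P124672) had a normalized log2 signal of 14.27, 14.69 and 15.21 in si-control cells and of 15.05, 14.96 and 15.13 in si-C1GALT1-3 cells. The si-control arrays spread widely and enclosed the narrow si-C1GALT1-3 group. Its log2 fold change was 0.33 (standard error 0.26, interval -0.31 to 0.96), and it was 0.10 without si-control replicate 1 and 0.57 without si-control replicate 3. The dimmer DYNLL1 probe (A_23_P65031) lay in the low region, with a processed intensity of 199.5 on si-control replicate 2 against 24931 to 39094 on the other 5 arrays. With that spot missing, its log2 fold change was 0.25 (standard error 0.30) from 2 si-control arrays. DYNLT1, the Tctex-type light chain, had 14.14, 14.39 and 14.51 in si-control cells and 14.36, 14.29 and 14.41 in si-C1GALT1-3 cells. Its groups overlapped, and its log2 fold change of 0.01 (standard error 0.15, interval -0.36 to 0.38) was the closest to 0 in the set.

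DYNLRB1, the roadblock-type light chain, was read by a spot in the low region, so 2 si-control arrays remained. Its normalized log2 signal was 13.91 and 14.08 in si-control replicates 1 and 3 and 14.19, 14.30 and 14.29 in si-C1GALT1-3 replicates 1 to 3. The groups did not overlap, and the log2 fold change was 0.26 (standard error 0.15, interval -0.14 to 0.66). The processed intensity of this spot was 2955 on si-control replicate 2 and 14008 to 21219 on the other 5 arrays. With the region kept, the log2 fold change was 0.96 (standard error 0.61), more than 3 times as large, and it rested on that spot.

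**Figure D3:**
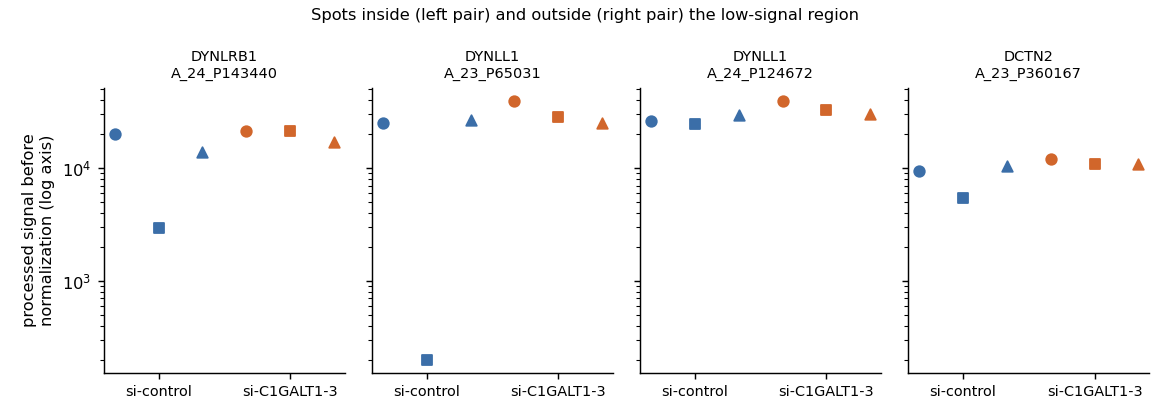
Processed intensity before normalization (log10 vertical axis) on each array for spots of DYNLRB1, DYNLL1 and DCTN2. The DYNLRB1 spot and the dimmer DYNLL1 spot lie in the low region of si-control replicate 2. The brighter DYNLL1 spot and the DCTN2 spot lie outside it. The dimmer DYNLL1 spot reads 199.5 on that array and at least 24931 elsewhere, and the DCTN2 spot, which borders the region, reads 5422 there.

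DCTN1 encodes p150Glued, the dynactin arm that binds the intermediate chain and microtubules. Its brighter probe (A_33_P3264577) had a normalized log2 signal of 12.19, 12.29 and 12.62 in si-control cells and of 12.63, 12.68 and 12.84 in si-C1GALT1-3 cells. The groups were separate by a small margin, between si-control replicate 3 and si-C1GALT1-3 replicate 1. A log2 fold change of 0.35 was fitted (standard error 0.17, interval -0.06 to 0.76). A second probe (A_33_P3406686), which the array assigns to a noncoding DCTN1 transcript, had 9.02, 8.35 and 9.15 in si-control cells and 8.32, 8.15 and 8.69 in si-C1GALT1-3 cells. Its groups overlapped and its log2 fold change was -0.45 (standard error 0.27), opposite in sign to the brighter probe. The sign of DCTN1 thus depended on the probe, with -0.05 for the median over both.

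DCTN2 encodes dynamitin, a dynactin shoulder subunit. Its normalized log2 signal was 12.88, 12.52 and 13.65 in si-control cells and 13.38, 13.29 and 13.64 in si-C1GALT1-3 cells. The groups overlapped because si-control replicate 3 was as high as any si-C1GALT1-3 array, and the log2 fold change was 0.42 (standard error 0.31, interval -0.35 to 1.20). The spot lies 1 column outside the low region, and si-control replicate 2 had the lowest of its 6 values. With the region widened by 10 rows and columns on each side, that value was dropped and the log2 fold change was 0.18 (standard error 0.29). It was 0.74 without si-control replicate 3.

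**Figure D4:**
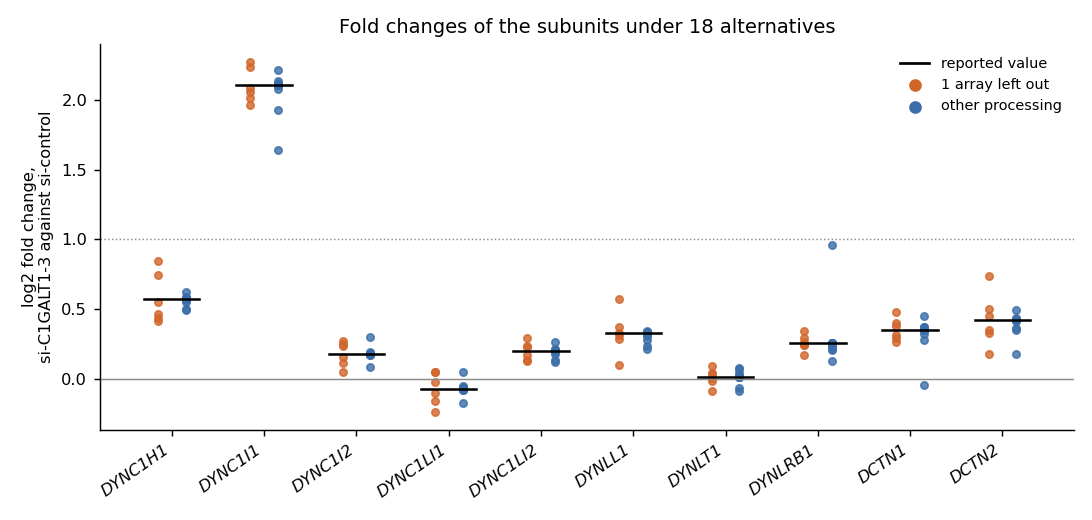
Log2 fold change (vertical axis) of each of the 10 members (columns) as reported (black line) and under 18 alternative settings (points). Orange points are fits with an array left out, and blue points are other processing. The DYNC1I1 points lie between 1.64 and 2.28, and the DYNLRB1 point at 0.96 is the setting in which the low region was kept.

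Genes that work with dynein-1 were read from 6 lists with 44 genes, by their brightest probes. Of these, 2 rose past the threshold and 0 fell, beside 3.41% of all genes called in either direction. At p under 0.01 alone, 4 were higher and 2 lower, beside 3.78% of all genes higher and 2.27% lower, or 6.05% in either direction. With the replicate as a block the counts were again 4 and 2, but the lower genes were then NDE1 and HOOK3 in place of TRAK2 and SPDL1. The groups did not overlap for 9 genes that were higher and 11 that were lower, beside 14.0% and 11.2% of all genes. No partner gene had an adjusted p under 0.05 in the reported limma fit or by the methods' t-test. At an unadjusted p under 0.05 there were 14 in that limma fit, beside 8028 of 58193 probes. By the methods' t-test there were 15, beside 6464 of 58169 probes. These lists were compiled from general knowledge with earlier results of these arrays known.

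The other dynactin subunits gave small values by their brightest probes. All 10 were short of the threshold by these probes. Of them, 9 were positive and 1 negative, with a median log2 fold change of 0.20, beside 52.4% positive and a median of 0.02 over all genes. ACTR1A, the actin-related protein of the dynactin filament, had the largest positive value, 0.37 (standard error 0.21). DCTN4, a pointed-end subunit, was the negative one, with -0.33 (standard error 0.15) and groups that did not overlap. The groups of 2 further subunits did not overlap in the other direction, DCTN6 with 0.36 and CAPZA1 with 0.21, named after their values were seen. Over all genes, 14.0% were higher and 11.2% lower without overlap. A dimmer DCTN5 probe (A_21_P0000143), also named after its value was seen, was higher and passed the threshold. It was well above background on 0 of 3 si-control arrays and 1 of 3 si-C1GALT1-3 arrays, so no size is given for it. Among the 3 light chain paralogs outside the set, DYNLL2 had 0.13 (standard error 0.14) and DYNLT3 had -0.26 (standard error 0.22, 2 si-control arrays). The DYNLT3 spot lies in the low region, and with the region kept its value was 0.88. DYNLRB2, the paralog of DYNLRB1, was not well above background on any of the 6 arrays, so no change can be given for it.

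LIS1 and the NudE proteins tune the motor's grip on microtubules. NDE1 had a normalized log2 signal of 11.34, 11.43 and 10.75 in si-control cells and of 10.28, 10.47 and 9.84 in si-C1GALT1-3 cells. The groups did not overlap. The log2 fold change was -0.98 (standard error 0.26), just short of 2-fold, and a second NDE1 probe gave -0.74. NDEL1, its paralog, had 0.46 (standard error 0.18), again with groups that did not overlap but on the other side. A second NDEL1 probe gave 0.37, and its groups overlapped. Neither gene passed p under 0.01 in the unpaired fit. With the replicate as a block NDE1 passed p under 0.01 in limma (adjusted p = 0.180), with slide differences of -1.05, -0.97 and -0.91.

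Cargo adaptors went both ways, with 8 of 16 positive and a median of 0.08. HOOK2, which links dynein to centrosomal and endosomal cargo, had a normalized log2 signal of 9.94, 9.92 and 8.84 in si-control cells and of 11.30, 10.88 and 10.86 in si-C1GALT1-3 cells. All si-C1GALT1-3 arrays were above all si-control arrays, and si-control replicate 3 was well below the other 2. HOOK2 rose by 1.45 on the log2 scale (standard error 0.34, adjusted p = 0.187 by limma), or 2.72-fold. It missed p under 0.01 without si-C1GALT1-3 replicate 1, 2 or 3, with values of 1.31, 1.52 and 1.51. TRAK2, a mitochondrial adaptor, had the most negative value, -0.86 (standard error 0.19), which passed p under 0.01 but not 2-fold. With the replicate as a block its limma p was 0.0101 (adjusted p = 0.205).

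Among 7 genes that recruit dynein to kinetochores or to the mitotic cell cortex, 6 were negative and 1 positive, with a median of -0.52. Over all genes, 52.4% were positive and the median was 0.02. None passed the threshold. CENPF, a kinetochore protein, had a normalized log2 signal of 13.12, 13.44 and 13.09 in si-control cells and of 12.72, 12.52 and 11.82 in si-C1GALT1-3 cells, and the groups did not overlap. Its log2 fold change was -0.86 (standard error 0.27). The positive one was NUMA1, a spindle pole protein, with 0.16 (standard error 0.15). In this list 4 genes had lower groups without overlap, beside 11.2% of all genes. At p under 0.01 alone 1 of the 7 was lower, beside 2.27% of all genes. It was SPDL1 (spindly), with -0.74 (standard error 0.18), named here after its value was seen, and with the replicate as a block its limma p was 0.017 (adjusted p = 0.224).

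The dynein-2 motor, which returns cargo to the base of cilia, shares light chains with dynein-1 but has its own heavy chain. The median log2 fold change of its 5 genes was 0.94, with 4 positive and 1 negative, beside a median of 0.02 and 52.4% positive over all genes. For 3 of them the si-C1GALT1-3 arrays all lay above the si-control arrays, beside 14.0% of all genes. The heavy chain DYNC2H1 had a normalized log2 signal of 7.26, 6.90 and 7.98 in si-control cells and of 8.58, 8.41 and 8.69 in si-C1GALT1-3 cells. It rose by 1.18 on the log2 scale (standard error 0.30, adjusted p = 0.201 by limma), or 2.26-fold. The value depended on single arrays for its call, which was lost without si-control replicate 1 (1.13) or 2 (0.94) and without si-C1GALT1-3 replicate 1 (1.16), 2 (1.25) or 3 (1.11). DYNC2I1 and DYNC2LI1, an intermediate chain and the light intermediate chain, had 0.97 (standard error 0.25) and 0.94 (standard error 0.21) and passed p under 0.01 but not 2-fold. Both are named after their values were seen. DYNLT2B, a light chain, had -0.13 (standard error 0.30). The heavy chains of the motors thus had log2 fold changes of 1.18 for DYNC2H1 and 0.57 for DYNC1H1, and the difference between them was not tested.

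**Figure D5:**
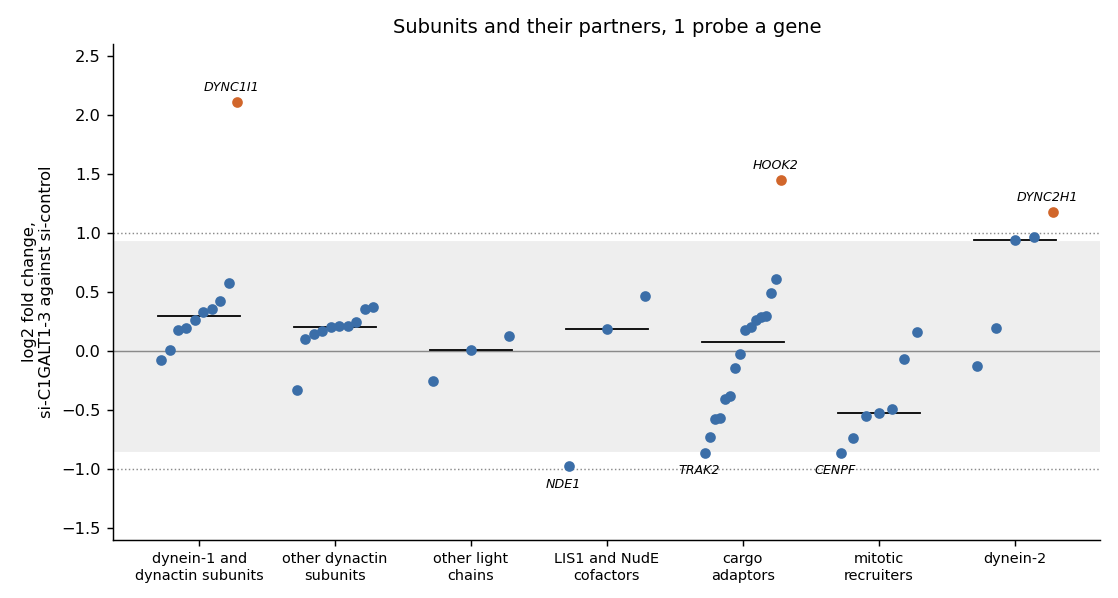
Log2 fold change, si-C1GALT1-3 minus si-control (vertical axis), of the 10 members and of the 44 partner genes in their 6 lists. Each point is a gene read by its brightest probe, and black lines mark the medians. The grey band spans the 5th to 95th percentile of all genes. HOOK2 at 1.45 and DYNC2H1 at 1.18 are the partner genes past the threshold, and 6 of the 7 mitotic recruiters lie below 0.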

How the data were processed

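The authors deposited, for each array, the output of Agilent Feature Extraction version 10.5.1.1 (per the file headers and the submitters' processing notes), in which the processed spot intensity is background-corrected and detrended per array, with no normalization across arrays. Their series table gives the intensity of each spot after background subtraction alone. The study's quantile normalization and limma follow these files.

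Here the log2 of the processed intensity was taken. Control spots were left out, spots marked as outliers (100 to 424 gene spots per array) were set to missing, and the low region of si-control replicate 2 (9712 gene spots) was masked. The 6 arrays were quantile normalized, spots of a probe were averaged, and groups were compared by lmFit and eBayes of limma (version 3.58.1, R version 4.3.3) over 58193 probes, with Benjamini-Hochberg adjustment and no filter on dim probes. The test was checked on simulated arrays. Spots well above background made up 66.2% to 72.7% of the gene spots, and 0 were saturated. With 3 arrays per group, their number limits the precision. Where several probes named a gene, the brightest by mean log2 signal was taken. RefSeq accessions gave a symbol to 31104 probes through a RefSeq gene table of GRCh38.p14, and the files name another build, so coordinates are given only for the RefSeq windows.

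The members, lists and tests were chosen with earlier results of these data known, and DYNC1I1 and NINL are also on gene lists that the study drew from these arrays. The genes named are the members with every probe, C1GALT1, partner genes past the threshold, and the largest positive and negative value of each list. DYNC2I1, DYNC2LI1, SPDL1, HOOK3, DCTN5, DCTN6, CAPZA1, NINL and PTPRC were added after their values were seen.

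Replicates of the same number share a slide, per the file headers. The deviations from the group means correlated at 0.198, 0.215 and 0.329 for same-numbered arrays. Because these arrays share a slide, a pairing of the samples and a slide effect cannot be told apart. Values are from the fit without a block unless another setting is named. The alternatives were the region kept or widened, the 75th percentile or no normalization, normexp on the median spot signal with an offset of 50, the series table, dim probes left out, a replicate block, a robust prior with trend, the methods' t-test, outlier spots kept, the median of a gene's probes, and each array left out.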

Additional observations from a re-analysis of the deposited data

How the results depend on the processing

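DYNC1I1 passed the threshold under all 18 alternatives, with log2 fold changes from 1.64 to 2.28 and adjusted p from 0.011 to 0.323. The lowest fold change came from normexp on the median spot signal. The adjusted p of DYNC1I1 by limma was under 0.05 with the region widened (0.049), normexp (0.023), dim probes left out (0.011) and the median of a gene's probes (0.037). In the fit with a replicate block its log2 fold change was 2.11 (adjusted p = 0.180). There 1604 probes passed, and no member, C1GALT1 or named partner gene changed sides of the threshold of p and 2-fold together. No other member passed under any alternative. DYNC1H1, DYNC1I2, DYNC1LI2, DYNLL1, DCTN2 and DYNLRB1 kept their sign in all 18. The DYNLRB1 value was 0.96 with the region kept and 0.12 with the 75th percentile. DYNC1LI1 kept its sign in 15, DYNLT1 in 14 and DCTN1 in 17.

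C1GALT1 passed the threshold with dim probes left out, at -1.0003. Partner genes past the threshold numbered 1 with the region kept (TRAK2), 1 with no normalization (DYNC2H1), 0 with the series table and 0 with the methods' t-test, and 3 with normexp. With each array left out they numbered 0 to 4. Of all probes, 1538 passed as reported, 915 with normexp, 896 with the methods' t-test, and 1126 to 1781 with each array left out. The share of passing probes that were higher was 62.5% as reported, 40.2% with the region kept, 72.6% with no normalization and 54.1% with the 75th percentile, which moved the median of all probes to -0.11. At an adjusted p under 0.05 by limma there were 49 probes as reported, the smallest at 0.0499, and 545 with dim probes left out. The number was 429 with normexp, 74 with the series table, 60 with the region widened and 31 with the 75th percentile. With the median of a gene's probes it was 96 genes, and by the methods' t-test 2 probes. There were 0 in limma with the region kept, with no normalization, under the block or without any 1 array. The count was also 0 with outlier spots kept (smallest adjusted p by limma 0.0503) and with the robust prior and trend (0.0565). In these fits 3747 to 10064 probes had an unadjusted p under 0.05. The causes were not tested. Probes near background limit what can be said of DYNLRB2, and 3 arrays per group leave intervals that reach past 2-fold for DYNC1H1 and DCTN2.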

Other observations

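Several probes of PTPRC, a leukocyte marker, were read. Its brightest probe had a log2 fold change of -0.33 and was well above background on all 6 arrays. Probe A_33_P3364821, well above background on 2 of 3 si-control arrays and 3 of 3 si-C1GALT1-3 arrays, had 1.90 and passed the threshold. Probe A_33_P3364811 was near background on all 3 si-control arrays (well above it on 0), so no size is given for it. CD3E and CD79A, the other leukocyte markers, had -0.37 and 0.05. Their part in the dynein results was not tested.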
